A study of Homo sapiens with 6 samples.

Results

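The 10 genes described here code for the core of DNA damage checkpoint signalling, and they were chosen by name as ATM, ATR, ATRIP, CHEK1, CHEK2, TP53BP1, MDC1, H2AX (H2AFX in the array annotation), TOPBP1 and CLSPN. All 10 were found among the 18242 genes measured, with 28 probe sets of the 45253 that name 1 gene. They were measured in HK-2 cells, an established human line from the kidney proximal tubule that was immortalised with papillomavirus E6 and E7 genes. The culture medium was a serum-free one for keratinocytes in all groups. Of the 6 single-colour arrays, 2 held RNA of untreated control cells, 2 of cells given 50 µM cisplatin for 6 h and 2 of cells given the same dose for 24 h. Cisplatin forms platinum adducts and crosslinks on DNA. The untreated cells carry no time in the labels, so cisplatin and time in culture cannot be told apart. The labels call the arrays of a group biological replicates without saying how the cultures were kept apart, and p-values measure only the spread between these samples.

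Checkpoint signalling starts from 2 large kinases. ATM is recruited to double-strand breaks by the MRE11, RAD50 and NBN complex, whereas ATR, bound to its partner ATRIP, is recruited to single-stranded DNA coated by RPA, which gathers where replication forks stall at adducts. TOPBP1 switches ATR on and claspin, the product of CLSPN, brings CHK1 to it, while ATM acts on CHK2, and both effector kinases restrain the cell cycle. Around a break the histone variant H2AX is phosphorylated, MDC1 binds the modified histone and 53BP1, the product of TP53BP1, is held there to direct repair. This chain works by phosphorylation of proteins that are already present. The arrays measured RNA only, so kinase activity and phosphorylated H2AX were not measured.

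The deposited values are log2 signals summarized after all arrays had been set to the same distribution, so each change is measured against the rest of its own array. The array medians over all probe sets lay between 4.45 and 4.54. The brightest probe set over the 6 arrays stood for a gene, and limma's adjusted p over all 18242 genes had to be under 0.05 for a gene to pass. Replicate arrays correlated at between 0.9962 and 0.9978, against 0.9599 to 0.9849 between groups. The 36 spike-in probe sets, which match no human gene, exceeded their control level by 0.37 after 6 h and by 0.89 after 24 h. The 9 hybridization spike-ins were higher by 0.097 and 0.41, and the 12 poly-A spike-ins by 0.54 and 1.21. Over all genes 2549 rose and 2886 fell at 6 h and 5685 rose and 4201 fell at 24 h. Scaled to all spike-ins these counts were 690 and 10248 at 6 h and 593 and 16110 at 24 h. With hybridization spike-ins they were 1544 and 3545 at 6 h and 1731 and 9832 at 24 h, with poly-A spike-ins 325 and 13130 and then 262 and 17034, and with housekeeping genes 1646 and 3825 and then 4566 and 4589. The median of all genes at 24 h was 0.10 as deposited and -0.78, -0.31, -1.11 and 0.04 in these 4 scalings, and at 6 h it was 0.03 as deposited and -0.34, -0.07, -0.51 and -0.08. The part of the spike-in shift in the results was not tested. The difference between the 3 prime and 5 prime probe sets of ACTB, a sign of RNA quality and labelling, was 2.07 and 1.11 on the control arrays, 2.02 and 1.53 at 6 h and 1.97 and 2.83 at 24 h, so the groups overlapped. Its group means were 1.59 in control, 1.77 at 6 h and 2.40 at 24 h. For GAPDH it was 0.27 and 0.26 in control, 0.25 and 0.25 at 6 h and 0.30 and 0.40 at 24 h. The 24 h arrays thus lay above all others for GAPDH. The part of this difference in the results was not tested. Of the proximal tubule markers 8 of 10 were measured and only PAX8 was over a log2 signal of 5 in at least 2 arrays. Of 5 epithelial markers KRT8, KRT18, KRT19 and EPCAM were, but CDH1, at 3.17 to 3.87, was not. No measured fibroblast, leukocyte or endothelial marker was. In RNA from a whole culture, fewer cells of a kind and less RNA per cell cannot be told apart.

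As deposited, H2AX had risen and CHEK2 and TOPBP1 had fallen by 6 h, and by 24 h H2AX, CLSPN and ATRIP were higher and ATM, ATR, CHEK2, TP53BP1 and TOPBP1 were lower than in control. CHEK1 and MDC1 did not pass at either time. At 6 h 1 of the 10 genes passed higher and 2 lower, where 14% of all genes passed higher and 15.8% lower. At 24 h 3 passed higher and 5 lower, against 31.2% and 23% of all genes. Between 6 h and 24 h 3 passed higher and 4 lower, against 21.2% and 16.7%. The median log2 change of the 10 genes was -0.01 at 6 h and -0.09 at 24 h, beside 0.03 and 0.10 over all genes. By its main probe set no checkpoint gene changed by 2-fold with an unadjusted p under 0.01, the thresholds in the methods of the study, whereas 4.93% of all genes did at 6 h and 12.1% at 24 h. Both comparisons use the same control arrays. The 4 scalings lower every 24 h change, because all 4 references were higher at 24 h than in control. The shift ran from 0.06 for housekeeping genes to 1.21 for poly-A spike-ins. The 5 falls at 24 h could therefore not turn, and only rises could. By their main probe sets none of the 3 rises kept its direction under each of the 4 scalings. With poly-A spike-ins H2AX, CLSPN and ATRIP were at -0.32, -0.58 and -0.76, and with all spike-ins at 0.00, -0.26 and -0.44.

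**Figure D1:**
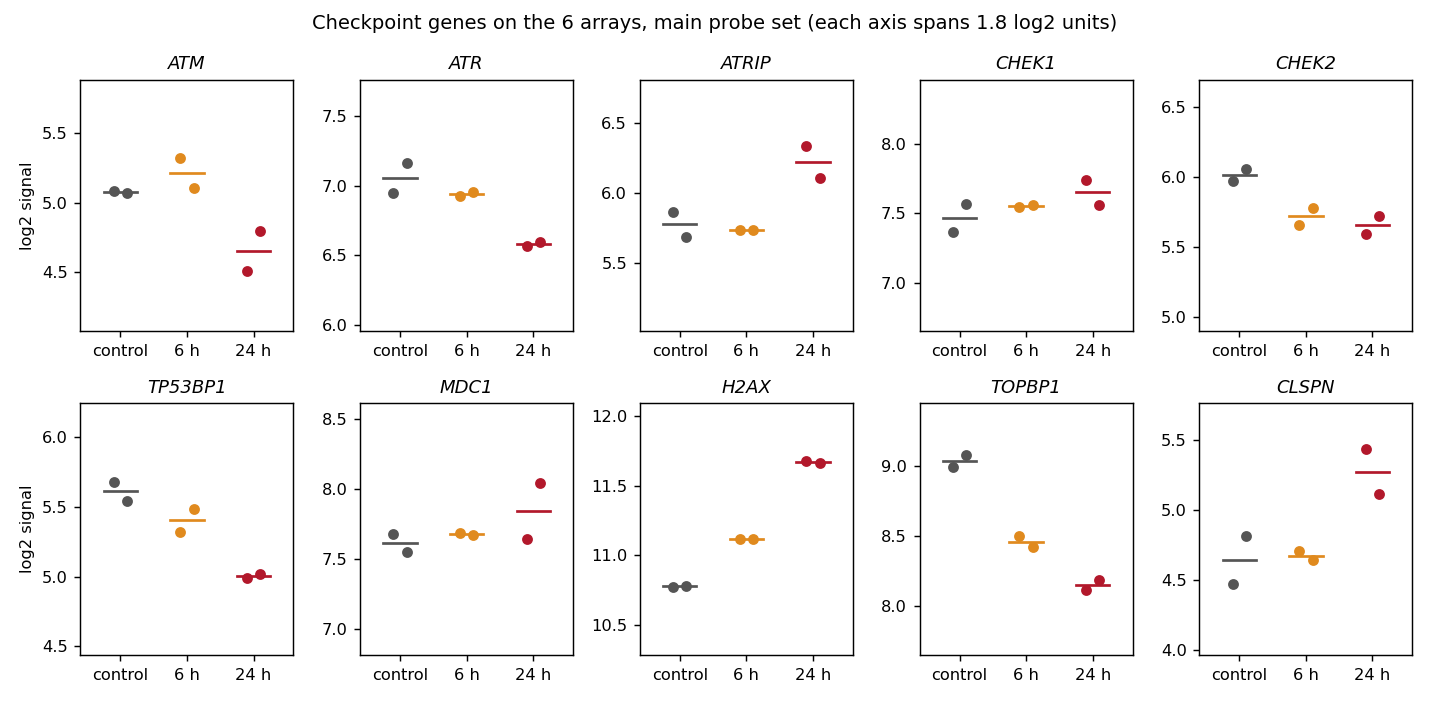
Log2 signal (vertical axis) of the main probe set of each checkpoint gene on the 6 arrays, grouped as control, 6 h and 24 h of cisplatin; points are arrays and lines are group means. Every vertical axis spans the same number of log2 units. The H2AX arrays step up from 10.8 in control to 11.7 at 24 h as deposited (with poly-A spike-ins the 24 h change is -0.32), and the TOPBP1 arrays step down from 9.0 and 9.1 to 8.1 and 8.2.

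Promoters of 3 genes are shown because the largest 24 h changes of main probe sets on the deposited scale were those of H2AX and TOPBP1, in opposite directions, and because TOPBP1 and CLSPN were the only 2 of the 10 with a match to the E2F motif. E2F factors drive genes of S phase entry. The motif was searched on both strands in 4 forms, TTTCCCGC, TTTGGCGC, TTTCGCGC and TTTGCCGC, in the 300 bases from 250 before to 50 after the start of each gene (RefSeq, GRCh38.p14), written 5′ to 3′ along the strand of the gene. Capitals mark the E2F match in the first pair and CCAAT boxes, the motif of NF-Y, in H2AX (CCAAT, or ATTGG on the opposite strand). All 3 genes lie on the minus strand, TOPBP1 at chr3:133661892-133662191, CLSPN at chr1:35769929-35770228 and H2AX at chr11:119095416-119095715.
TOPBP1: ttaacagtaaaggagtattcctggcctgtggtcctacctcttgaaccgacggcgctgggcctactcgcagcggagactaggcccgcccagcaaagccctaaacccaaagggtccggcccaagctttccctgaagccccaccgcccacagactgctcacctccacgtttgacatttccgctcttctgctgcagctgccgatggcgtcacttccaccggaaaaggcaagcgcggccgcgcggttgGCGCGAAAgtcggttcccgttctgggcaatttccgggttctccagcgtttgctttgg
CLSPN: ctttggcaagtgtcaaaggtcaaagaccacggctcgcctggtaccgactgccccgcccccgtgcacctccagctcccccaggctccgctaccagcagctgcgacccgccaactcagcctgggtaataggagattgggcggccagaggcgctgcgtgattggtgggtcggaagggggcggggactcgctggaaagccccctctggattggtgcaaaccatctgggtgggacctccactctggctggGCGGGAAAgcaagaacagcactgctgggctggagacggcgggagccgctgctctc
H2AX: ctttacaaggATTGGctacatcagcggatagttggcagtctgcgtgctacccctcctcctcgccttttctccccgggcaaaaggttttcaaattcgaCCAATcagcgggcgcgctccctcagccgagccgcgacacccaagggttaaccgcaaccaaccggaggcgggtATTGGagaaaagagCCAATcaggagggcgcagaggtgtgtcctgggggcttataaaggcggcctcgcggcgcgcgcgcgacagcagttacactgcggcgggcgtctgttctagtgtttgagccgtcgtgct
The TOPBP1 match began 7 bases before the start of the gene and had the form TTTCGCGC on the opposite strand, and the CLSPN match began 5 bases before and had the form TTTCCCGC on the opposite strand. One of the E2F forms was present in 4.15% of the promoters of tested genes. The 2 genes that hold it had opposite changes at 24 h on the deposited scale, -0.89 for TOPBP1 and 0.63 for CLSPN (the latter -0.58 with poly-A spike-ins). A CCAAT box was present in 8 of the 10 promoters, all but those of ATR and TOPBP1, and in 34.7% of the promoters of tested genes. H2AX had 4 such boxes, CHEK2 and CLSPN 3 each, MDC1 2, and ATM, ATRIP, CHEK1 and TP53BP1 1 each. No E2F match overlapped a CCAAT box. A match describes letters in this window and no binding was measured.

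ATM, the kinase of double-strand breaks, was lower at 24 h by its main probe set, but its probe sets disagreed. The main probe set (11720014_a_at) read 5.08 and 5.07 in control cells, 5.32 and 5.11 at 6 h and 4.51 and 4.79 at 24 h. The 24 h arrays lay below all others, and the 6 h arrays lay just above control. The change was 0.14 (SE 0.12, adjusted p = 0.441) at 6 h and -0.42 (SE 0.12, adjusted p = 0.0142) at 24 h. A dimmer probe set of the same gene (11720013_a_at) went the other way, with 3.10 and 3.14 in control, 3.65 and 3.52 at 6 h and 4.16 and 4.61 at 24 h. Its change at 24 h was 1.26 (SE 0.14, adjusted p = 0.000214 over all probe sets). The other 3 read between 2.65 and 4.15 on all arrays and changed by 0.01, 0.08 and 0.21 at 24 h without passing. In the mean of all 5 probe sets ATM was at 0.23 (adjusted p = 0.0614), so the direction of ATM depends on the probe set. The call of the main probe set was also lost without control replicate 1 (adjusted p = 0.0656), without control replicate 2 (0.0637) and without 24 h replicate 1 (0.0804).

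ATR, the kinase of stalled forks, was lower at 24 h. Its single probe set read 6.95 and 7.16 in control cells, 6.92 and 6.95 at 6 h and 6.56 and 6.59 at 24 h. The 24 h arrays were the lowest, while those at 6 h overlapped the control range. ATR changed by -0.12 (SE 0.09, adjusted p = 0.404) at 6 h and fell by 0.48 at 24 h (SE 0.09, adjusted p = 0.00258), a 1.39-fold lower signal. The fall between 6 h and 24 h was 0.36 (adjusted p = 0.0166), and that call was lost without either 6 h array (0.0647 and 0.0819) and without 24 h replicate 1 (0.0597).

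ATRIP, the partner that carries ATR to RPA, moved the opposite way to ATR on the deposited scale. It read 5.87 and 5.68 in control, 5.74 and 5.74 at 6 h and 6.34 and 6.11 at 24 h, so the arrays at 24 h stood above the other 4. The change was -0.04 (SE 0.11, adjusted p = 0.831) at 6 h and 0.45 (SE 0.11, adjusted p = 0.00697) at 24 h, but 0.04 (adjusted p = 0.807) with hybridization spike-ins, -0.44 with all spike-ins and -0.76 with poly-A spike-ins. Without control replicate 2 the 24 h change was 0.36 (adjusted p = 0.058). ATRIP overlaps TREX1, an exonuclease gene, and is measured by a probe set with the suffix (_s_at) for probes that match more than 1 transcript. The main probe sets of TOPBP1 and MDC1 carry the same suffix. TREX1, named after its value was seen, rose by 1.60 at 24 h (adjusted p = 3.9e-06; 0.39 with poly-A spike-ins). Whether TREX1 transcripts add to the ATRIP signal was not tested.

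TOPBP1, the activator of ATR, was lower at both times. Its main probe set read 9.0 and 9.08 in control, 8.5 and 8.42 at 6 h and 8.12 and 8.19 at 24 h. The 3 groups did not overlap. TOPBP1 fell by 0.58 at 6 h (SE 0.08, adjusted p = 0.000853) and by 0.89 at 24 h (SE 0.08, adjusted p = 3.34e-05), a 1.85-fold lower signal. A second probe set, without the _s_at suffix of the main one, read 8.12 and 8.15 in control, 7.76 and 7.66 at 6 h and 7.82 and 7.81 at 24 h. It was lower at both times, by -0.42 (adjusted p = 0.00919) and -0.32 (adjusted p = 0.0163), but did not fall further after 6 h (0.10, adjusted p = 0.424). The further fall of the main probe set from 6 h to 24 h was 0.31 (adjusted p = 0.0184) and did not pass without either 6 h array (0.117 and 0.0563) or without 24 h replicate 1 (0.0749). In the mean of both probe sets it was -0.10 (adjusted p = 0.278).

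CLSPN, whose product claspin links ATR to CHK1, was higher at 24 h on the deposited scale. It read 4.47 and 4.82 in control, 4.70 and 4.64 at 6 h and 5.43 and 5.11 at 24 h. The 6 h arrays lay between those of control, and both 24 h arrays lay above. This signal is dim: all control and 6 h arrays were under a log2 value of 5, the cut of the filter on dim genes, and only the 24 h arrays exceeded it. The change was 0.03 (SE 0.14, adjusted p = 0.912) at 6 h and 0.63 (SE 0.14, adjusted p = 0.00528) at 24 h, a 1.55-fold higher signal. It was 0.22 (adjusted p = 0.173) with hybridization spike-ins, -0.26 with all spike-ins and -0.58 with poly-A spike-ins. The rise from 6 h to 24 h was 0.60 (adjusted p = 0.0106), 0.57 without 6 h replicate 2 (0.052) and 0.44 without 24 h replicate 1 (0.0568).

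The effector kinases differed, with CHEK2 lower at both times and CHEK1 not passing. CHEK1 codes for CHK1, the target of ATR. Its main probe set read 7.37 and 7.57 in control, 7.55 and 7.56 at 6 h and 7.74 and 7.56 at 24 h, and the control range overlapped both treated groups. CHEK1 changed by 0.08 (SE 0.10, adjusted p = 0.598) at 6 h and by 0.18 (SE 0.10, adjusted p = 0.153) at 24 h, with a 95% interval of -0.05 to 0.41. All 6 of its probe sets had positive changes at 24 h, from 0.12 to 0.32, and 1 of them passed (0.31, adjusted p = 0.0386). In the mean of all 6 the change was 0.22 and passed (adjusted p = 0.0325). The main probe set was at -0.23, -0.70 and -1.03 with hybridization, all and poly-A spike-ins.

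CHEK2 codes for CHK2, the target of ATM. Its main probe set read 5.97 and 6.06 in control, 5.66 and 5.78 at 6 h and 5.59 and 5.72 at 24 h. Both treated groups lay below control and overlapped each other. CHEK2 fell by 0.29 at 6 h (SE 0.09, adjusted p = 0.0379) and by 0.36 at 24 h (SE 0.09, adjusted p = 0.00975), and the difference between the times was -0.06 (95% interval -0.27 to 0.15, adjusted p = 0.633). A second probe set was lower by -0.51 at 6 h and -0.40 at 24 h, and the dim remaining one was at 0.08 and 0.03. The 6 h call did not pass when any 1 of the control or 6 h arrays was left out (adjusted p from 0.0705 to 0.215), and the 24 h call was lost without control replicate 2 (0.0623) and without 24 h replicate 1 (0.053).

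H2AX, the histone variant that marks broken chromatin once phosphorylated, had the largest rise of the 10 genes by main probe set on the deposited scale. Its single probe set read 10.78 and 10.78 in control, 11.12 and 11.12 at 6 h and 11.67 and 11.66 at 24 h. Replicates differed by at most 0.01, and the 3 groups stood apart. H2AX rose by 0.34 at 6 h (SE 0.08, adjusted p = 0.00961) and by 0.89 at 24 h (SE 0.08, adjusted p = 2.01e-05), a 1.85-fold higher signal. The further rise from 6 h to 24 h was 0.55 (SE 0.08, adjusted p = 0.000796). The direction depended on the scaling: at 24 h H2AX was at 0.83 with housekeeping genes, 0.48 (adjusted p = 0.000949) with hybridization spike-ins, 0.00 with all spike-ins and -0.32 with poly-A spike-ins. At 6 h it did not pass in any of these scalings, nor without either of the 6 h arrays (adjusted p = 0.0609 and 0.0621). H2AX is known to make both a polyadenylated transcript and one that ends in a histone stem loop, and the labelling used here starts from poly(A) tails.

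MDC1, the adaptor that binds phosphorylated H2AX, did not pass at either time. Its main probe set read 7.68 and 7.55 in control, 7.69 and 7.67 at 6 h and 7.64 and 8.05 at 24 h. A single array, 24 h replicate 2, stood above the other 5. The change was 0.06 (SE 0.13, adjusted p = 0.777) at 6 h and 0.23 (95% interval -0.07 to 0.52, adjusted p = 0.168) at 24 h. A second probe set read 6.26 and 6.33 in control, 6.27 and 6.17 at 6 h and 6.71 and 6.67 at 24 h, and passed at 24 h with 0.40 (adjusted p = 0.00687). All 4 probe sets had positive changes at 24 h, from 0.14 to 0.40, and their mean passed with 0.29 (adjusted p = 0.00886). Without 24 h replicate 1 the main probe set was at 0.43 and passed (adjusted p = 0.0106), and without 24 h replicate 2 it was at 0.03 (adjusted p = 0.851). With hybridization, all and poly-A spike-ins the 24 h change was -0.18, -0.66 and -0.98.

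TP53BP1, whose product protects break ends from resection, fell by 24 h. Its main probe set read 5.68 and 5.54 in control, 5.32 and 5.49 at 6 h and 4.99 and 5.02 at 24 h. Each later group lay below the one before it. TP53BP1 changed by -0.21 (SE 0.09, adjusted p = 0.139) at 6 h and fell by 0.60 at 24 h (SE 0.09, adjusted p = 0.000689), a 1.52-fold lower signal. In the mean of its 4 probe sets the 24 h change was -0.34 (adjusted p = 0.00651). A second probe set read 5.68 and 5.54 in control, 5.25 and 5.19 at 6 h and 5.19 and 5.12 at 24 h, and passed lower at 6 h (-0.39, adjusted p = 0.0168) and at 24 h (-0.45, adjusted p = 0.00441). The other two were at -0.30 (adjusted p = 0.116) and, for a dim one, 0.00 at 24 h. The fall from 6 h to 24 h was 0.40 (adjusted p = 0.0108) by the main probe set, -0.13 (adjusted p = 0.224) in the mean of all 4 and -0.31 (adjusted p = 0.085) without 6 h replicate 2. TP53BP1 overlaps TUBGCP4, a gamma-tubulin complex gene named after its value was seen, which rose by 1.15 at 24 h (adjusted p = 1.15e-05; 0.27 with all and -0.06 with poly-A spike-ins). The other measured genes that overlap a checkpoint gene were C11orf65 (ATM), ACRV1 (CHEK1) and DPAGT1 (H2AX). As deposited they were at 0.03, 0.65 and -0.44 at 24 h (adjusted p = 0.794, 0.000391 and 0.00166).

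**Figure D2:**
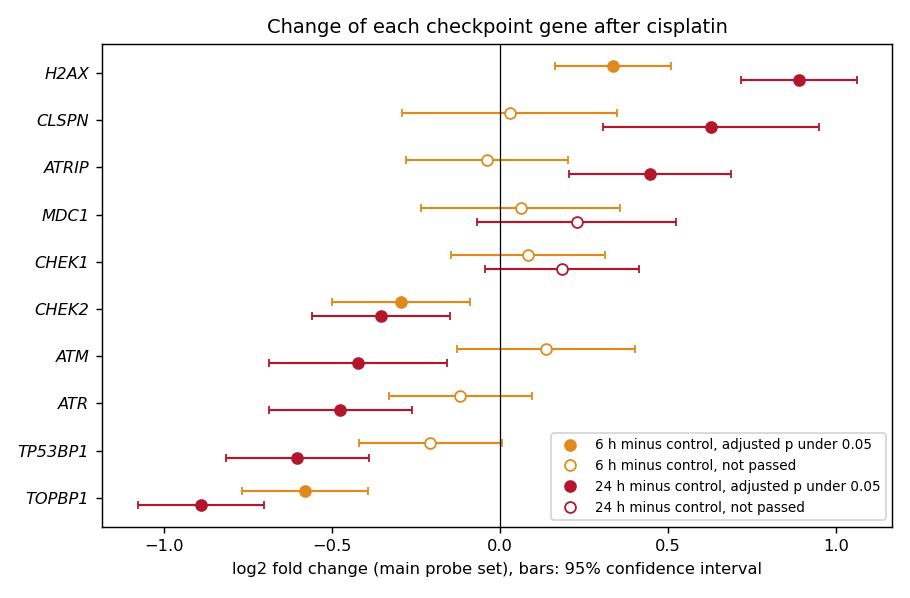
Log2 change from control (horizontal axis) of the main probe set of each checkpoint gene at 6 h (orange) and 24 h (red), ordered by the 24 h change; bars are 95% confidence intervals from limma and filled points have an adjusted p under 0.05. On the deposited scale the 24 h changes run from -0.89 for TOPBP1 to 0.89 for H2AX. The rises of H2AX, CLSPN and ATRIP turn negative with poly-A spike-ins. The 4 scalings lower every 24 h change, so the falls could not turn.

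The 28 probe sets were also tested among all 45253 that name 1 gene. At 6 h 1 passed higher and 4 lower, where 9.85% of all probe sets passed higher and 12.7% lower. At 24 h 6 passed higher and 8 lower, against 25.3% and 20.4%. The probe sets of CHEK1, MDC1, TOPBP1 and TP53BP1 each shared the sign of their main one at 24 h, in CHEK2 2 of 3 did, and in ATM 1 of 5, the main one alone. ATR, ATRIP, CLSPN and H2AX had 1 probe set each and no such check.

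**Figure D3:**
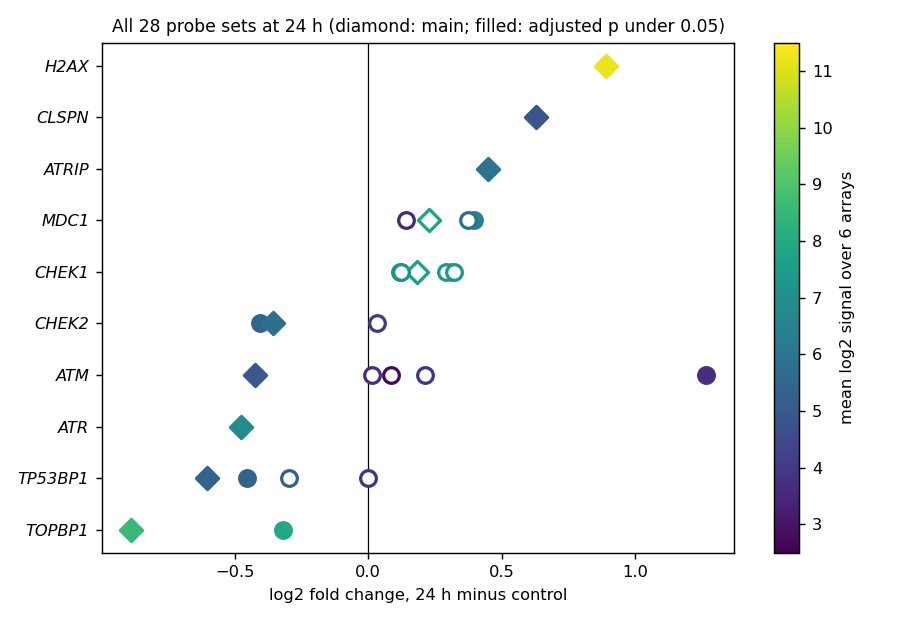
Log2 change at 24 h (horizontal axis) of all 28 probe sets of the checkpoint genes; diamonds are main probe sets, filled symbols have an adjusted p under 0.05 over all probe sets, and colour is the mean log2 signal over the 6 arrays. The ATM probe sets lie between -0.42 and 1.26, while the 6 CHEK1 probe sets lie between 0.12 and 0.32.

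The 10 genes differ widely in gene span, the length of the gene from start to end on the genome (RefSeq, GRCh38.p14). H2AX, a gene without introns, spans 1.59 kb, MDC1 17.5 kb, ATRIP 20.9 kb, CLSPN 49.8 kb, CHEK2 54.1 kb, CHEK1 56.0 kb, TOPBP1 61.7 kb, TP53BP1 107.6 kb, ATR 129.5 kb and ATM 146.0 kb. The 3 longest were all lower at 24 h, by their main probe sets, with changes from -0.60 to -0.42, and the shortest, H2AX, had the largest rise as deposited (-0.32 with poly-A spike-ins). Spearman's rho between span and the 24 h change was -0.818 over the 10 genes and -0.35 over the 18190 genes with a span. At 6 h it was -0.297 and -0.244. ATM, the longest of the 10, enters by its main probe set, while the mean of its 5 probe sets was at 0.23 at 24 h. These rho values are descriptions across genes, which share the same arrays and are no independent replicates. Among all genes, the group of 1819 with spans like ATM, ATR and TP53BP1 (86.6 to 156.9 kb, 1 of 10 equal groups by span) had a median change of -0.22 at 24 h with 47.9% of its genes lower, and the shortest of these groups had a median of 0.19 with 5.61% lower. CHEK2, CHEK1 and CLSPN all span between 49.8 and 56.0 kb, and their 24 h changes were -0.36, 0.18 and 0.63.

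**Figure D4:**
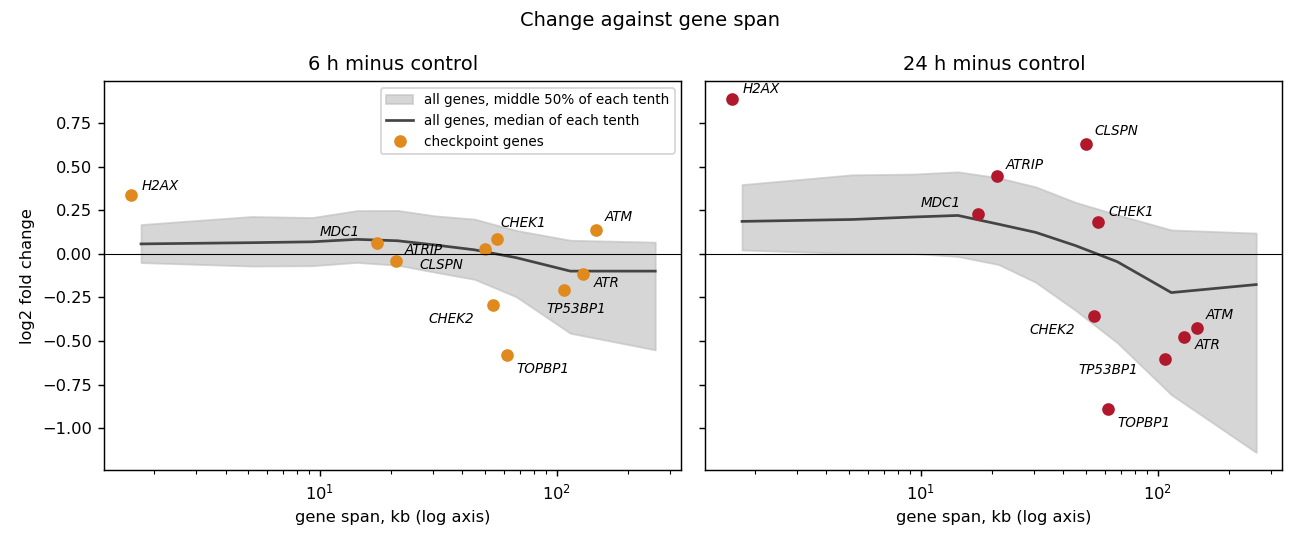
Log2 change from control (vertical axis) against gene span in kb (horizontal axis, logarithmic) at 6 h (left) and 24 h (right); points are the checkpoint genes, the line joins the medians of all genes in 10 equal groups by span and the band holds the middle 50% of each. At 24 h as deposited H2AX lies above the band at short span, and TP53BP1, ATR and ATM lie at -0.60, -0.48 and -0.42 at the long end.

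The wider checkpoint pathway was described through 7 lists with 76 genes, of which 72 were measured. At 6 h 16 were higher and 24 lower (22.2% and 33.3%, against 14% and 15.8% of all genes). At 24 h 19 were higher and 26 lower (26.4% and 36.1%, against 31.2% and 23%), with a median of -0.12. Scaling to all or to poly-A spike-ins lowers every change from control, so the named falls were larger in these scalings than as deposited. The genes named from these lists are the largest passing rises and falls at 24 h with separated arrays.

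Upstream of ATM, 2 of 8 measured partners and break sensors rose and 4 fell at 24 h. NBN, the subunit that carries ATM to breaks, read 9.68 and 9.85 in control. It read 9.22 and 9.11 at 6 h and 8.25 and 8.29 at 24 h. NBN fell by 1.5 at 24 h (adjusted p = 3.23e-06), and was at -0.66 in the mean of its probe sets. MRE11, of the same complex, was higher by 0.355 at 24 h as deposited (adjusted p = 0.0114), a change that the spike-in scalings lower. ATMIN, an ATM-binding protein that acts apart from NBN, was higher by 0.86 (adjusted p = 2.82e-05; -0.02 with all spike-ins and -0.35 with poly-A spike-ins). Of 12 genes that activate ATR at single-stranded DNA, 3 rose and 1 fell at 24 h. HUS1 and RAD9A, 2 subunits of the ring-shaped 9-1-1 clamp that brings TOPBP1 to ATR, were higher by 1.28 and 1.01, and RAD17, which loads this clamp, was lower by -0.73 (adjusted p = 0.000156). With poly-A spike-ins RAD9A was at -0.20 and HUS1 at 0.07, and with all spike-ins at 0.13 and 0.40, of which the HUS1 value with all spike-ins alone passed. Among 5 chaperones that fold ATM and ATR, 1 was higher and 2 lower at 24 h: TTI2 was at 0.77 (-0.11 with all spike-ins and -0.44 with poly-A spike-ins) and RUVBL1 at -0.78.

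At break sites, 3 of 18 measured ubiquitin and 53BP1 effector genes rose and 9 fell at 24 h, with a median of -0.27 beside 0.10 over all genes. UIMC1 (RAP80), which reads ubiquitin chains for the BRCA1-A complex, was lower by -0.84 at 6 h and -0.98 at 24 h (adjusted p = 2.36e-05), and was at -0.36 at 24 h in the mean of its probe sets. RNF8, the ubiquitin ligase that MDC1 recruits, was higher by 0.62 and 0.92, and MAD2L2 (REV7), a subunit of the shieldin complex downstream of 53BP1, by 0.56 and 1.1. The 24 h values of RNF8 and MAD2L2 were -0.29 and -0.11 with poly-A spike-ins and 0.04 and 0.22 with all spike-ins, none of them passing. RNF8 was at 0.52 in the mean of its probe sets.

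Downstream of the effector kinases, 6 of 12 cell cycle targets rose and 3 fell at 24 h. CDC25C, a phosphatase that CHK1 and CHK2 restrain, was at -0.11 (adjusted p = 0.56) at 6 h and rose by 1.31 at 24 h (adjusted p = 2.68e-05; 0.42 with all spike-ins, and 0.09 with poly-A spike-ins, adjusted p = 0.621). E2F1, a transcription factor of S phase genes, rose by 0.81 at 6 h and 1.01 at 24 h (0.12 with all and -0.20 with poly-A spike-ins at 24 h, neither passing). TLK1 and TLK2, chromatin assembly kinases that are targets of the checkpoint, were lower by -1.73 and -1.49 at 24 h and by -1.51 and -1.20 at 6 h, with TLK1 at -0.996 at 24 h in the mean of its probe sets. Of 4 measured genes in the list of CDKN1A, MDM2, MDM4 and PPM1D, 2 rose and 2 fell at 24 h. CDKN1A, which codes for the p21 inhibitor of cyclin-dependent kinases, rose from 8.11 and 8.16 in control to 10.06 and 10.02 at 6 h and 10.52 and 10.59 at 24 h. Its change was 2.42 at 24 h (adjusted p = 2.09e-07) and lay between 1.21 and 2.36 in the 4 scalings. MDM4, a partner of the ubiquitin ligase MDM2, was lower by -0.86, and was at -0.32 in the mean of its probe sets. Among 13 genes of checkpoint turnover and recovery, 2 rose and 5 fell at 24 h, and BTRC and FBXW11, the paired F-box proteins that mark claspin and WEE1 for degradation, were lower by -1.59 and -1.26, with BTRC at -0.89 in the mean of its probe sets.

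Expression of CHEK1, CLSPN and TOPBP1 is known to vary through the cell cycle, and genes of its stages changed in the same arrays. Of 22 S phase genes 6 rose and 3 fell at 6 h, and 6 rose and 10 fell at 24 h. Of 22 G2 and M phase genes none rose and 17 fell at 6 h, with a median of -0.49, and 6 rose and 8 fell at 24 h, with a median of -0.10. From 6 h to 24 h 16 of them rose and 1 fell, whereas 1 of the S phase genes rose and 14 fell, with a median of -0.33. Of all genes 14% rose and 15.8% fell at 6 h, and 31.2% rose and 23% fell at 24 h. From 6 h to 24 h the shares of all genes were 21.2% and 16.7%. CCNE2, the cyclin of S phase entry, was higher by 1.29 at 24 h (0.40 with all spike-ins, and 0.08 with poly-A spike-ins, adjusted p = 0.689) and UHRF1, which maintains DNA methylation at replication, was lower by -1.34. BUB1B, a spindle checkpoint kinase, was lower by -1.07, and MKI67, the gene of the proliferation antigen Ki-67, was higher by 1.14, but at 0.06 in the mean of its probe sets and at -0.07 with poly-A spike-ins. The part of cell cycle stage in the changes of the 10 checkpoint genes was not tested.

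**Figure D5:**
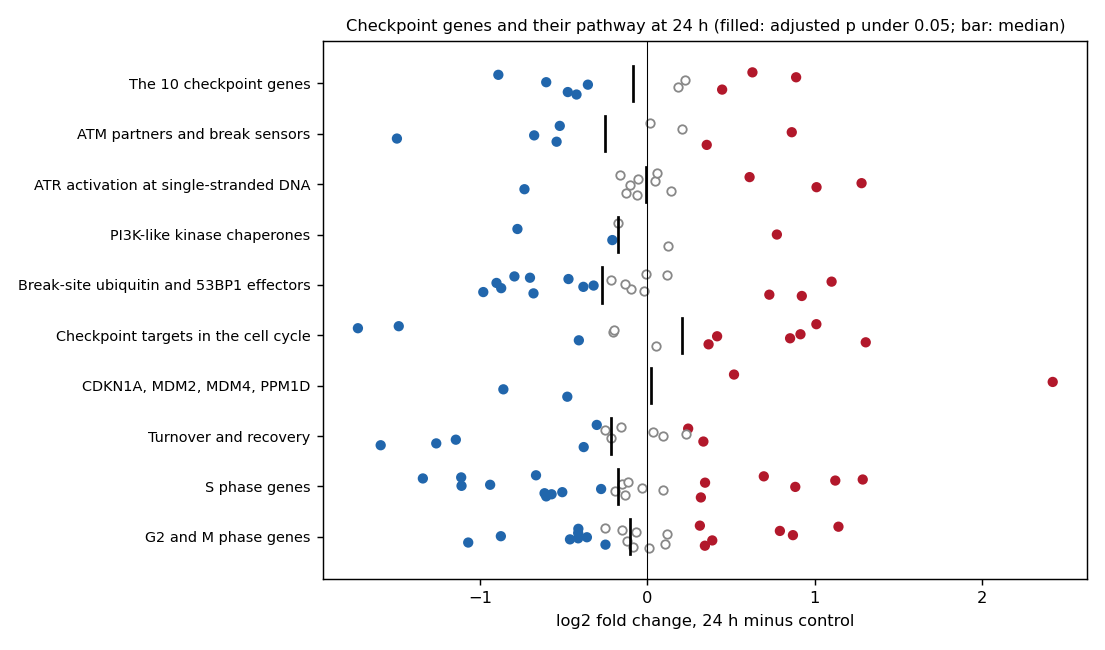
Log2 change at 24 h (horizontal axis) of the 10 checkpoint genes and of the measured genes of 7 pathway lists, S phase genes and G2 and M phase genes; each point is a gene, red and blue points passed higher and lower, open points did not pass and the black bar is the median of the list. On the deposited scale the break-site list has a median of -0.27 and the checkpoint targets one of 0.21, and CDKN1A stands farthest to the right at 2.42; rises of several named genes turn negative with poly-A spike-ins.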

How the data were processed

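The 6 arrays held RNA of HK-2 cells (2 untreated, 2 after 6 h and 2 after 24 h of 50 µM cisplatin), and their number limits the precision. The authors made the deposited log2 values by robust multi-array average (RMA) analysis in Affymetrix Expression Console 1.1, which corrects the background, sets all arrays to one distribution and summarizes probe sets. That distribution makes every change relative, so the spike-in scalings were tried. Nothing was normalized again otherwise.

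Gene symbols came from the annotation of the platform, brought up to date through Entrez numbers. The table held 49386 probe sets, and 45253 had 1 gene (45172 matched by that number), 1327 several, 2713 none here and 93 were controls. Gene tests did not use the last 3 kinds. The pathway lists held 76 genes, of which 72 were measured, and the others are not reported here.

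The tests used limma 3.58.1 (R 4.3.3), lmFit and eBayes, in 1 fit of 3 groups, with Benjamini-Hochberg adjustment. The script was tested on simulated data. The 10 genes and all lists were chosen with earlier results of these data known. Named pathway genes were taken from at most the 2 largest rises and 2 largest falls per list at 24 h among passing genes with separated arrays. TREX1, TUBGCP4, C11orf65, ACRV1 and DPAGT1 were named after their values were seen.

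Promoters and gene spans came from RefSeq tables of GRCh38.p14. Alternatives were a replicate block, the mean of all probe sets, probe sets in place of genes, other eBayes settings, no moderation, only the groups compared, a filter at a log2 value of 5 in 2 arrays, 4 scalings, an adjusted p under 0.01, the fold and p rule of the methods and leaving out each array. Tables and plots were made in Python 3.11.15 with pandas 2.3.3, numpy 2.4.6, matplotlib 3.10.9 and scipy 1.17.1.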

Additional observations from a re-analysis of the deposited data

Results flagged for a closer look

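For 7 of the 10 checkpoint genes the change from control differed between 6 h and 24 h by limma's test of that difference (adjusted p under 0.05 over all genes), which is the direct contrast of the treated groups. Of all genes 21.2% passed higher and 16.7% lower in it. As deposited, H2AX was higher at 24 h than at 6 h by 0.55, CLSPN by 0.60 and ATRIP by 0.49. ATM was at -0.56, TP53BP1 at -0.40, ATR at -0.36 and TOPBP1 at -0.31. The groups at 6 h and 24 h did not overlap for any of these 7, nor for CHEK1, which did not pass (adjusted p = 0.468). The share of all genes with such separated arrays was not counted. With poly-A spike-ins the differences of H2AX, CLSPN and ATRIP were negative. When the probe sets of each gene were averaged, 3 of these calls were lost, with ATM at 0.11 (adjusted p = 0.382), TOPBP1 at -0.10 (adjusted p = 0.278) and TP53BP1 at -0.13 (adjusted p = 0.224). Groups of 2 arrays allow no test for a single array far from the others.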

How the results depend on the processing

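The counts of checkpoint genes past the threshold were 1 higher and 2 lower at 6 h. At 24 h they were 3 and 5, and between the times 3 and 4. These counts held under the replicate block, the trend and robust settings, the fit of only the groups compared and the filter on dim genes. Only its 24 h arrays brought CLSPN past that filter, and only its control and 6 h arrays brought ATM past it. The filter is therefore no check on the calls of CLSPN and ATM. The labels number the arrays without saying that a number marks a shared culture, and the deviations of same-numbered arrays correlated at 0.046, -0.056 and -0.058. The replicate block changed no call of a checkpoint gene, H2AX at 24 h stayed at 0.89, and over all genes 2398 rose and 2809 fell at 6 h and 5620 rose and 4097 fell at 24 h with it. With poly-A spike-ins the counts were 0 higher and 9 lower at 6 h, 0 and 9 at 24 h, and 0 and 7 between the times. Of all 18242 genes 13130, 17034 and 14338 were lower in these comparisons. With all spike-ins the checkpoint counts were 0 and 7, 0 and 8, and 0 and 7, where 10248, 16110 and 12877 of all genes were lower. With hybridization spike-ins the higher counts became 0, 1 and 0, beside 1544, 1731 and 1030 of all genes. With housekeeping genes 0 passed higher at 6 h, beside 1646 of all genes. In the mean of all probe sets 5 were higher at 24 h and 1 lower between the times, beside 6114 and 2580 of all genes. With every probe set tested 1 was lower at 6 h, beside 2623 of all genes. Without moderation 1 passed lower after 6 h, 3 lower and 1 higher after 24 h, and 1 each way between the times. Of all genes 1888 were then lower after 6 h, 3498 lower and 3809 higher after 24 h, and 2009 higher and 1945 lower between the times. At an adjusted p under 0.01, 1 was lower at 6 h and 1 lower between the times. The share of all genes at that threshold was not counted. By main probe sets 0 passed the rule of the methods in any comparison. Of all genes 4.93% passed that rule at 6 h and 12.1% at 24 h. Leaving out an array leaves 1 array in its group, so counts of passing genes are not given for those fits. The 24 h changes then ran from -0.565 to -0.281 for ATM, from 0.330 to 0.564 for ATRIP and from 0.455 to 0.802 for CLSPN.

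These signs turned. At 6 h with all spike-ins ATM was at -0.23, CHEK1 at -0.29, MDC1 at -0.31, H2AX at -0.034 and CLSPN at -0.34. With poly-A spike-ins the same genes were at -0.40, -0.46, -0.48, -0.20 and -0.51. CHEK1, MDC1 and CLSPN were at -0.014, -0.035 and -0.069 with hybridization spike-ins and at -0.020, -0.042 and -0.075 with housekeeping genes. MDC1 was at -0.006 in the mean of its probe sets. Leaving out 1 array at 6 h gave -0.132 to 0.053 for ATRIP, -0.016 to 0.183 for CHEK1, -0.145 to 0.202 for CLSPN and -0.002 to 0.126 for MDC1, with the sign turned without control replicate 1 for ATRIP, CHEK1 and CLSPN, without control replicate 2 for MDC1 and without 6 h replicate 1 for CLSPN (-0.003). At 24 h ATM was at 0.23 in the mean of its probe sets. With all spike-ins ATRIP was at -0.44, CHEK1 at -0.70, MDC1 at -0.66, CLSPN at -0.26, ATMIN at -0.022 and TTI2 at -0.11. With hybridization spike-ins CHEK1 was at -0.23 and MDC1 at -0.18. With poly-A spike-ins ATRIP was at -0.76, CHEK1 at -1.03, MDC1 at -0.98, H2AX at -0.32, CLSPN at -0.58, ATMIN at -0.35, E2F1 at -0.20, MAD2L2 at -0.11, MKI67 at -0.069, RAD9A at -0.20, RNF8 at -0.29, TTI2 at -0.44 and TUBGCP4 at -0.061. Between 6 h and 24 h ATM was at 0.11 and CHEK2 at 0.002 in the mean of all probe sets. With all spike-ins ATRIP was at -0.027, CHEK1 at -0.41 and MDC1 at -0.35, with hybridization spike-ins CHEK1 at -0.21 and MDC1 at -0.15, and with poly-A spike-ins ATRIP at -0.18, CHEK1 at -0.57, MDC1 at -0.50, H2AX at -0.12 and CLSPN at -0.071. CHEK2 was at 0.000 without 6 h replicate 2 and 0.003 without 24 h replicate 1, and MDC1 ranged from -0.036 without 24 h replicate 2 to 0.368 without 24 h replicate 1. A scaling moves all genes of an array by one amount, which shows how these signs came to turn. The cause of the other changes was not tested.

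With 2 arrays per group, the 24 h intervals of CHEK1 and MDC1 reach 0.41 and 0.52, so missing the threshold does not show that these genes did not change.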
